A study of Mus musculus with 4 samples.

Results

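The mitochondrial ribosomal proteins are the nuclear-encoded proteins of the ribosome that works inside mitochondria. They were taken here as the protein-coding genes whose mouse symbol is Mrpl or Mrps followed by a number, and 78 genes met that rule among the 17543 genes listed in the 4 deposited tables. Of these, 49 carry the letter l, for the large subunit, and 29 the letter s, for the small subunit. All 78 were listed in every liver, with between 89 and 2049 reads, and all 78 were tested. The 6 pseudogenes with such symbols were outside the rule and were not listed in the tables.

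The samples were livers of C57BL/6 mice, 2 wild type (genotype WT) and 2 homozygous for a lysine-to-arginine change in Ezh2, labelled Ezh2(K307R/K307R), and their total RNA was sequenced. Ezh2 encodes the enzyme that, within the Polycomb complex PRC2, methylates histone H3. The labels give no sex, age, treatment or hour of collection and do not say whether the replicates came from separate animals, so p-values here measure only how far these samples spread, which may be technical. The comparison asks which liver transcripts differ between the genotypes, here for the proteins of the mitochondrial ribosome.

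Mitochondria keep a small genome of their own, and the proteins it encodes are core subunits of the respiratory chain and of ATP synthase. A dedicated ribosome makes them. Its RNAs come from the mitochondrial genome, whereas its proteins are encoded in the nucleus, made in the cytosol and imported. Some of these proteins descend from the bacterial ancestor and others were added later; the large subunit joins amino acids while the small subunit reads the messenger. Hepatocytes are rich in mitochondria, and genes for mitochondrial ribosomal proteins are expressed in nearly every cell type.

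The libraries held between 18602928 and 20044832 expected counts, that is estimated reads, and the members took between 0.207% and 0.246% of them. The 6 hepatocyte markers fixed for the tissue (Alb, Ttr, Apoa1, Serpina1a, Cps1 and Fgb) summed to 136479 and 136557 CPM in WT livers and to 127138 and 128372 CPM in K307R livers, where CPM are read counts scaled to library size by the TMM method. Both K307R livers were thus lower in them, with 0 of the 6 called. The 5 stellate cell markers summed to 83.1 and 118 CPM in WT livers and to 259 and 200 CPM in K307R livers, with 1 of the 5 called. Kupffer cell markers summed to 119 and 145 against 243 and 153 CPM, sinusoidal endothelial markers to 47.1 and 66.0 against 73.6 and 83.1 CPM, and red cell precursor markers, 1 of 3 called, to 249 and 303 against 317 and 373 CPM. In each of these 4 lists both K307R livers were above both WT livers. Such separation was common among single genes. Of all genes tested, 25.2% had both K307R livers above both WT livers and 23.4% had both below, and 2.86% were called in either direction. The sums of the cholangiocyte, B cell and T cell markers overlapped between the genotypes. The only listed pancreas marker was lower in both K307R livers, at 11.3 and 6.06 CPM in WT livers against 5.52 and 4.25 CPM. Both mutant livers carried female-type sex-chromosome transcripts and both wild-type livers male-type ones. Xist, the RNA that silences an X chromosome in females, had 6 and 6 reads in WT livers against 6172 and 11201, and the Y-linked Ddx3y had 1168 and 1108 reads against 0 and 0. Arntl, a core activator of the circadian clock, was at 1.10 and 1.18 CPM against 12.3 and 23.7 CPM. Genotype, sex-chromosome pattern and Arntl level therefore cannot be told apart in any difference given here, and in whole liver fewer cells of a type cannot be told apart from less RNA per cell. The part of the other cell types in the values below was not tested. Ezh2 itself was at 3.36 and 3.93 CPM in WT livers and at 3.45 and 2.56 CPM in K307R livers, and its gene counts do not check the point mutation.

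The promoters of these genes are shown because the nuclear regulators of mitochondrial genes are known to act through short motifs near the start site. RefSeq's promoter table (GRCm38.p6, the assembly also called mm10) held windows for 69 of the 78 members, 75 windows in all, each from 250 bases before to 50 bases after a start site. The 9 members with no window were Mrpl13, Mrpl15, Mrpl19, Mrpl38, Mrpl4, Mrpl54, Mrps28, Mrps34 and Mrps35. Searched on both strands, the NRF1 motif (GCGCA, any 1 base, then GCGC) was in 13 of the 75 windows (17.3%), against 9.51% of the 13030 windows of tested genes and 4.6% of all 32851. CCGGAAG, a motif of ETS factors such as GABPA, was in 26 (34.7%), against 16.7% and 8.86%. AANATGGC, a motif of YY1, was in 21 (28%), against 8.11% and 6.05%. CACGTG, the E-box, was in 7 (9.33%, against 9.88% and 7.15%), CCAAT, bound by NF-Y, in 30 (40%, against 37.7% and 37.4%), and TATAAA, the TATA box, in 5 (6.67%, against 7.87% and 13.6%). These are counts of windows, and overlapping windows of the same gene can hold the same site. The 7 E-box windows belonged to 5 members and the 30 CCAAT windows to 27. In 47 windows (62.7%) at least 1 of the NRF1, ETS and YY1 motifs was present, against 29.7% of the windows of tested genes, and in 0 windows did the ETS and YY1 motifs overlap. A match is a description of the letters and not a binding site.

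The promoters of 5 members are printed with these motifs in capitals, each 280 bases on the gene's own strand and ending 30 bases after the start. Mrpl57 (chr14:57825989-57826268, plus strand) and Mrps21 (chr3:95871485-95871764, minus strand) had the smallest p of their subunit among members with a window. Each has an NRF1 motif, starting 57 and 91 bases before the start site, and an ETS motif starting 4 and 18 bases after it, on the strand opposite to the printed one in Mrps21. Mrpl58 (chr11:115403502-115403781, plus strand) shows 2 ETS motifs and a YY1 motif around the start. Mrpl44 (chr1:79775768-79776047, plus strand), whose value was the highest of all members relative to wild type, has an NRF1 motif starting 35 bases before the start. Mrps11 (chr7:78782881-78783160, plus strand) starts 42 bases from the start of Mrpl46, which runs the other way, so a small and a large subunit gene share this stretch.
Mrpl57: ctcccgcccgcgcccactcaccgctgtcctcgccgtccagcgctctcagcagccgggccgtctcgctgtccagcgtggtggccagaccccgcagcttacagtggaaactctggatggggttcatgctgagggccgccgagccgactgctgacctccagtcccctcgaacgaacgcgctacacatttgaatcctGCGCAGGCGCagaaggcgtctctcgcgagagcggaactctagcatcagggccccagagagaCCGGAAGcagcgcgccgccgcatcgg
Mrps21: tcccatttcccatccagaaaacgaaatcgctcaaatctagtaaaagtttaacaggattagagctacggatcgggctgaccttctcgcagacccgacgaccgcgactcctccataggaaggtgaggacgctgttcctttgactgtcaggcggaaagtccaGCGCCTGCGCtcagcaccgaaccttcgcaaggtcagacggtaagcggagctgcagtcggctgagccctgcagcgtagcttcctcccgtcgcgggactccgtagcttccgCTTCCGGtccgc
Mrpl58: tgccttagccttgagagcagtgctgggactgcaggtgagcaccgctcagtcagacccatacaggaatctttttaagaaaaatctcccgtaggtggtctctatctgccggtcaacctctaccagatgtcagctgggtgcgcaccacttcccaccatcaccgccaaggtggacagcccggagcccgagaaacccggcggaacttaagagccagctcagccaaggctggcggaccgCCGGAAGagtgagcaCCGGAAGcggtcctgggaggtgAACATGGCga
Mrpl44: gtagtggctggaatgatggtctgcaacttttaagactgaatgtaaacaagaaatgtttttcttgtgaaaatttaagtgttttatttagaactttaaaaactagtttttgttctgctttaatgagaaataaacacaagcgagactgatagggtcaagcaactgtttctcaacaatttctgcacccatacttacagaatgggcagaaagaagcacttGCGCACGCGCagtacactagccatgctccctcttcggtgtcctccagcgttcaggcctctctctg
Mrps11: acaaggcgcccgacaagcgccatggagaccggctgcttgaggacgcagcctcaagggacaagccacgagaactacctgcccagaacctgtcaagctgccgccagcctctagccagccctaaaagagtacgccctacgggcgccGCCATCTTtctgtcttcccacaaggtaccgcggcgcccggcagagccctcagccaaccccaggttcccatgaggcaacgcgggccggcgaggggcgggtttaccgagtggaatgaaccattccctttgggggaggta

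The members' levels were compared per length, as FPKM (fragments scaled to transcript length and sequencing depth), which the authors computed. Over the 4 livers the mean FPKM of a member ran from 2.10 to 103. The highest was Mrpl12, the stalk protein of the large subunit that recruits translation factors, at 105 and 95.5 FPKM in the wild-type livers and 116 and 94.7 FPKM in K307R livers. Next among large subunit genes came Mrpl52 (mean 90.3 FPKM), Mrpl42 (81.0) and Mrpl30 (68.1). The 4 highest small subunit genes were Mrps21 (83.6 FPKM), Mrps12 (47.5), a protein of the decoding centre, Mrps18b (43.0) and Mrps7 (39.0).

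At the other end of the large subunit stood Mrpl19 (mean 2.10 FPKM), Mrpl17 (5.71), Mrpl57 (7.56) and Mrpl35 (7.84), and of the small subunit Mrps25 (3.84 FPKM), Mrps14 (8.80), Mrps6 (9.60) and Mrps11 (10.8). Several of these have long listed transcripts, 6712 bases for Mrpl17, 6076 for Mrps25, 5016 for Mrpl19 and 3695 for Mrpl35, which lowers FPKM at a given number of reads.

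**Figure D1:**
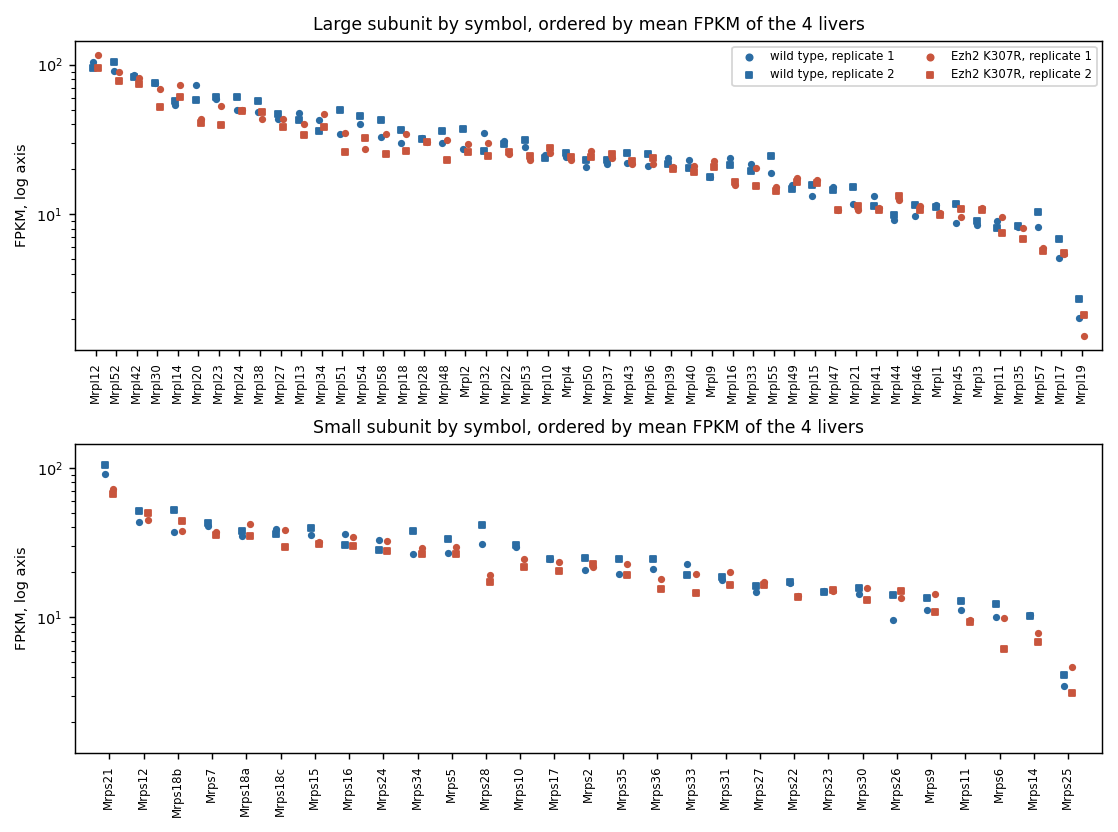
Level of each of the 78 members in each of the 4 livers as FPKM on a log axis, large subunit genes above and small subunit genes below, ordered by mean FPKM; colour gives the genotype and marker shape the replicate. Levels run from Mrpl12, near 103 FPKM, to Mrpl19, near 2.10 FPKM, and genes differ far more than the 4 livers do within a gene.

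Summed over members, the large subunit stood at 1506 and 1578 FPKM in the wild-type livers and at 1459 and 1313 FPKM in the mutant livers, and the small subunit at 748 and 833 FPKM against 720 and 660 FPKM. The ratio of large to small was 2.01 and 1.89 in WT livers (mean 1.95 ± 0.0844, SD, n = 2) and 2.03 and 1.99 in K307R livers (2.01 ± 0.0254, n = 2). The ranges of the ratio overlapped between the genotypes. The median large subunit gene was at 23.9 and 25.4 FPKM in WT livers and at 23.0 and 24.2 FPKM in K307R livers, and the median small subunit gene at 22.7 and 24.6 against 21.6 and 19.2 FPKM. By these medians the ratio of large to small was 1.05 and 1.03 in WT livers and 1.07 and 1.26 in K307R livers, which did not overlap, so the overlap of the ratio depended on taking sums.

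In the mutant livers 1 mitochondrial ribosomal protein gene was called lower and 0 were called higher at an adjusted p under 0.05 by edgeR's quasi-likelihood test (Benjamini-Hochberg over all 12837 genes tested), and the same counts came from DESeq2. The background was 1.47% of all genes tested called lower, 1.39% called higher and 2.86% called in either direction by edgeR, and 2.69% and 2.68% called lower and higher by DESeq2. The called share of members, 1.28% lower, was thus near the background. At an unadjusted p under 0.05, 11 members were lower (6 large, 5 small) and 0 higher, against 8.31% and 8.5% of all genes tested. Limma on log2(FPKM + 1) called 0 members in either direction.

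Mrps28 was the gene called. It encodes the small subunit protein named bS1m, after a bacterial relative, and lies on chromosome 3 from 8802146 to 8923857 (mm10, Entrez gene 66230). Its level was 24.9 and 28.0 CPM in the wild-type livers and 13.5 and 11.8 CPM in the mutant livers. Both mutant livers lay below both wild-type livers, in FPKM as well (31.1 and 41.2 against 19.1 and 17.2). Mrps28 fell to 47.8% of the wild-type level, with a log2 fold change of -1.06 (SE 0.20, 95% interval -1.52 to -0.61, edgeR adjusted p = 0.0364). It was the only 1 of the 78 members whose fitted change passed 2-fold, against 9.39% of all genes tested. The call was lost without mutant replicate 1 (edgeR adjusted p = 0.0726) or 2 (0.146), with total-count scaling (0.0771) and in limma on log2(FPKM + 1) (0.0864). The listed span of Mrps28 holds a pseudogene and 2 long noncoding RNAs, and the labels do not state whether counting used strand.

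The next smallest p-values of the large subunit belonged to Mrpl57, Mrpl55, Mrpl20, Mrpl54 and Mrpl16, none of which passed the test. Mrpl57, a small mitochondria-specific protein, was at 21.5 and 22.9 CPM in WT livers and at 13.7 and 12.6 CPM in K307R livers (log2 fold change -0.75, 95% interval -1.19 to -0.31, edgeR adjusted p = 0.0882). Its listed span overlaps Ska3, a kinetochore gene on the other strand (log2 fold change -0.57). Mrpl20, the counterpart of a bacterial assembly protein, was at 52.0 and 35.5 CPM against 27.5 and 25.2 CPM (-0.73, edgeR adjusted p = 0.16). The wild-type livers of Mrpl20 thus differed from each other by more than the lower of them differed from the mutants, and without wild-type replicate 2 it was called (-0.99, edgeR adjusted p = 0.0379).

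Mrpl55 stood at 20.1 and 22.1 CPM against 14.3 and 13.1 CPM (-0.62), Mrpl54 at 25.2 and 24.05 against 15.1 and 17.4 CPM (-0.60) and Mrpl16, which lines the peptidyl transferase centre region, at 29.9 and 22.8 against 17.5 and 17.5 CPM (-0.59). For each of these 3 genes, named for a small p, both mutant livers lay below both wild-type livers, against 23.4% of all genes tested. Their edgeR adjusted p lay between 0.153 and 0.21.

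In the small subunit, Mrps21 was at 40.2 and 39.3 CPM in WT livers and at 28.0 and 25.1 CPM in K307R livers (log2 fold change -0.58, 95% interval -1.01 to -0.15, edgeR adjusted p = 0.162). Mrps14 was at 22.9 and 19.0 against 15.4 and 12.9 CPM (-0.56, edgeR adjusted p = 0.226), and Mrps10 at 33.8 and 29.4 against 24.6 and 21.1 CPM (-0.47, 0.285). Mrps36 carries the symbol of the family but is known as a subunit of the 2-oxoglutarate dehydrogenase complex and not of the ribosome. It was at 16.3 and 16.1 CPM against 12.4 and 10.3 CPM (-0.51, edgeR adjusted p = 0.255). In all 4 genes both mutant livers were below both wild-type livers, against 23.4% of all genes tested. They were named for the smallest p in this direction, so the separation is not separate support.

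Among the 13 members whose estimate lay above 0, Mrpl44, an RNase III-related protein of the large subunit, had the largest. It was at 14.6 and 13.2 CPM in WT livers and at 17.3 and 17.9 CPM in K307R livers (log2 fold change 0.34, 95% interval -0.10 to 0.78, edgeR adjusted p = 0.435). The span of Mrpl44 overlaps that of Wdfy1 (log2 fold change -1.42). Mrpl3, which reaches towards the catalytic centre, was at 14.5 and 13.1 against 16.6 and 15.5 CPM (0.22), Mrpl9 at 31.9 and 26.7 against 35.9 and 31.5 CPM (0.20), Mrpl14 at 38.8 and 35.3 against 46.8 and 37.6 CPM (0.19) and Mrpl50 at 48.5 and 46.1 against 55.5 and 48.9 CPM (0.14). In the small subunit only Mrps26 (10.4 and 13.0 against 13.1 and 13.96 CPM, 0.21), Mrps27 (30.5 and 28.4 against 31.4 and 29.4 CPM, 0.05) and Mrps18a (0.01) had estimates above 0. The estimates of Mrps27 and Mrps18a turned below 0 without wild-type replicate 2 or mutant replicate 1. The edgeR adjusted p of these members ran from 0.435 to 0.988. Mrpl44, Mrpl3, Mrpl50 and Mrps26 were the 4 members with both mutant livers above both wild-type livers, against 25.2% of all genes tested.

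**Figure D2:**
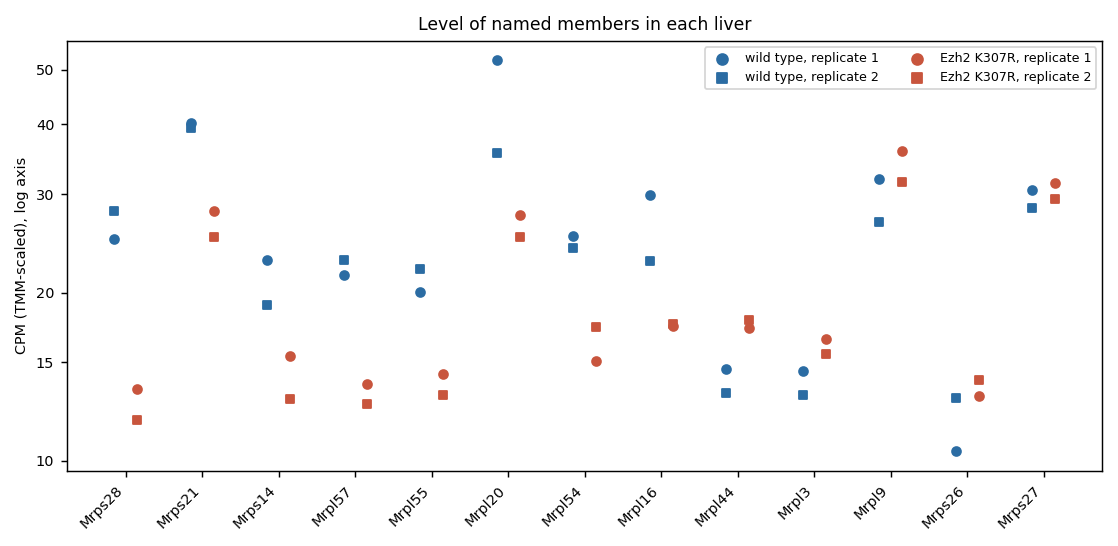
CPM of 13 named members in each liver on a log axis, wild type in blue and Ezh2 K307R in red, with circles for replicate 1 and squares for replicate 2. From Mrps28 to Mrpl16 both mutant points lie below both wild-type points, and from Mrpl44 onwards the mutant points lie above or among the wild-type points.

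Across the family most estimates lay slightly below 0. The log2 fold change was under 0 for 65 of the 78 members, 39 of 49 in the large and 26 of 29 in the small subunit, against 48.9% of all genes tested. The median was -0.24 in the large subunit (84.6% of the wild-type level) and -0.19 in the small subunit (87.6%), against 0.01 over all genes tested. The livers did not overlap between the genotypes, with the mutants below, for 41 members (26 large, 15 small), against 23.4% of all genes tested, and with the mutants above for 4 members, against 25.2%. These are counts and medians over genes of the same 4 livers and not independent tests.

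The share of negative estimates varied with the libraries and the scaling. It was 57 of 78 with total-count scaling, without wild-type replicate 1 or without mutant replicate 2, and 70 of 78 without wild-type replicate 2. The shares over all genes in these fits are not given here. With total-count scaling the median over all genes tested rose as well, from 0.01 to 0.09, while the median member rose from -0.23 to -0.15. Without wild-type replicate 1 the median over all genes was 0.01, and without mutant replicate 2 it was -0.02. Over the 12 alternative fits 52 members kept an estimate below 0 in each and 6 kept one above 0. Mutant replicate 2 was the liver with the lowest CPM for 51 of the 78 members and wild-type replicate 1 the one with the highest for 43. FPKM summed over the members put the wild-type livers in the reverse order, 2255 in replicate 1 and 2411 in replicate 2. Mutant replicate 2 was again the lowest, at 1973 FPKM. The median member differed by -0.12 log2 units between wild-type replicates 2 and 1 and by -0.18 between mutant replicates 2 and 1, beside -0.23 between the genotypes on the same log2(CPM + 0.5) scale. On that scale the difference within a genotype was therefore of the same order as the difference between the genotypes.

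For most members the interval left room only for modest differences. For 67 of the 78 the whole 95% interval lay within 1 log2 unit of 0, that is within a 2-fold change either way, against 57% of all genes tested. For Mrpl12, the member with the highest FPKM, it ran from -0.52 to 0.50 around a log2 fold change of -0.01 (111 and 85.7 CPM against 109 and 85.8 CPM).

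**Figure D3:**
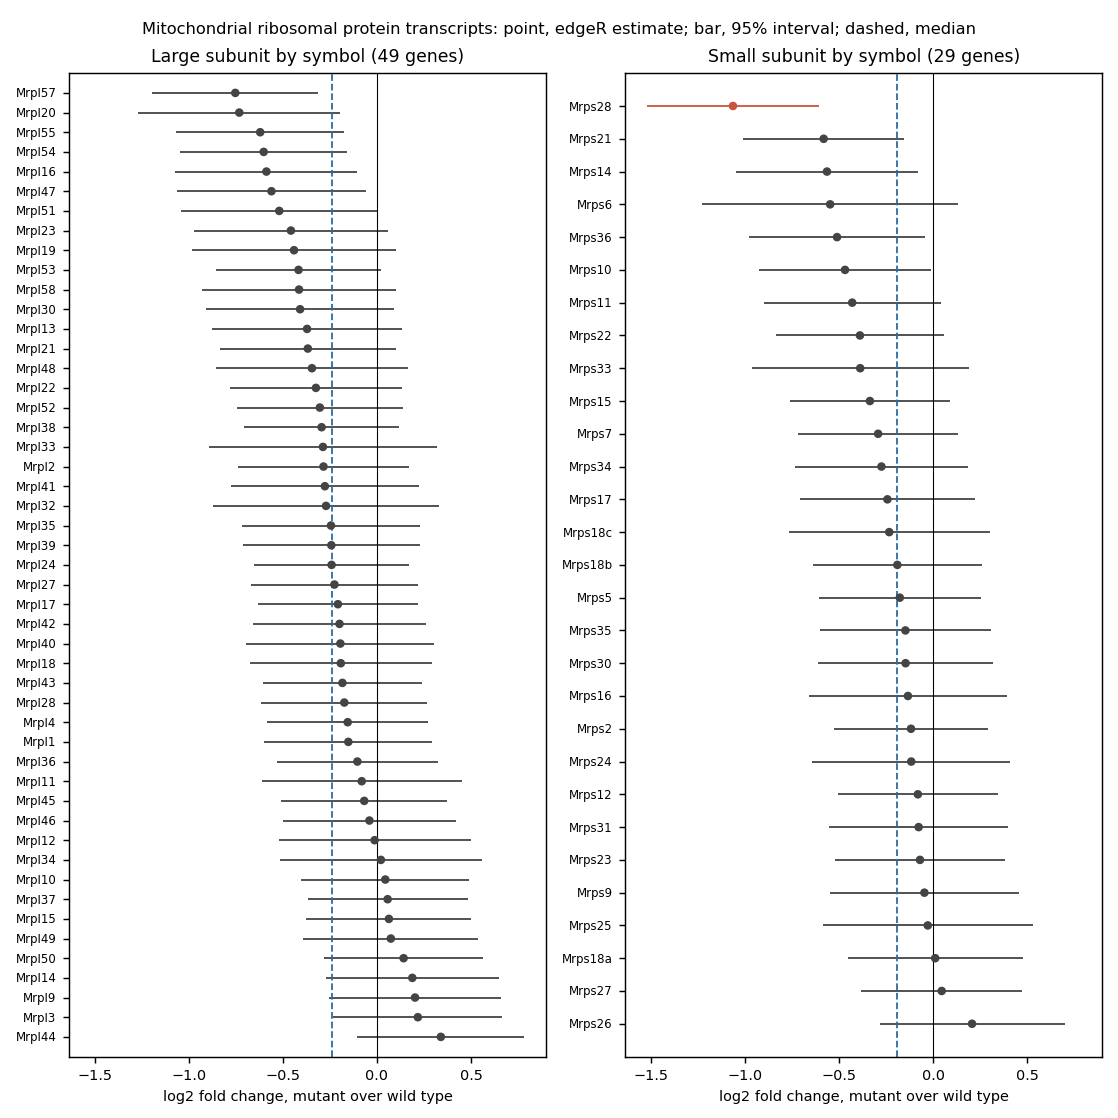
Log2 fold change of mutant over wild type for the 49 large and 29 small subunit genes, with points for the edgeR estimates and bars for their 95% intervals; red marks an adjusted p under 0.05 and the dashed line the median of the panel. Mrps28 is the only red point, at -1.06, and the medians lie at -0.24 and -0.19.

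Large and small subunits can also be split by the standard ribosome names, in which a first letter u or b marks a protein with a counterpart at the same place in the bacterial ribosome and m a mitochondria-specific one. Of the 45 members with a bacterial counterpart by name, 29 belong to the large and 16 to the small subunit, and their medians were -0.23 and -0.27. All 16 small subunit genes with such a counterpart, Mrps28, Mrps21, Mrps14, Mrps6, Mrps10 and Mrps11 among them, had estimates below 0, and in 12 of the 16 both mutant livers lay below both wild-type livers, against 23.4% of all genes tested. The same held for 16 of the 29 large subunit genes with a counterpart and for 10 of the 20 mitochondria-specific ones. Of the 12 mitochondria-specific genes with an s in the symbol, 9 had estimates below 0, 2 had both mutant livers below, and the median was -0.11. The 20 mitochondria-specific large subunit genes had a median of -0.26. The difference between these classes was not tested.

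Mrps6 was at 8.74 and 8.99 CPM in WT livers and at 7.59 and 4.55 CPM in K307R livers (log2 fold change -0.55, 95% interval -1.23 to 0.13). Its mutant livers differed widely from each other, and its span overlaps Slc5a3, an inositol transporter gene on the same strand (log2 fold change -0.75), so its reads are uncertain. Mrps11 was at 12.9 and 12.6 against 9.71 and 9.21 CPM (-0.43, edgeR adjusted p = 0.34). Mrpl46, which starts 42 bases from it on the other strand, was at 12.7 and 12.8 against 12.9 and 11.9 CPM (-0.04). The intervals of these neighbours overlapped, from -0.90 to 0.04 for Mrps11 and from -0.50 to 0.42 for Mrpl46.

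The members Mrps18a, Mrps18b and Mrps18c are paralogues related in sequence to a single bacterial small subunit protein, but only Mrps18c (bS18m) takes its name, and Mrps18a and Mrps18b are counted above as mitochondria-specific by name (mL66 and mS40). Mrps18b and Mrps18c sit in the small subunit, whereas Mrps18a is found in the large subunit of the assembled ribosome. Mrps18a was at 32.8 and 30.3 CPM in WT livers and at 35.3 and 28.2 CPM in K307R livers (log2 fold change 0.01, 95% interval -0.45 to 0.47). Mrps18b was at 43.9 and 52.6 against 39.6 and 45.01 CPM (-0.19, -0.64 to 0.26) and Mrps18c at 21.8 and 17.1 against 18.9 and 14.2 CPM (-0.23, -0.77 to 0.30). The livers overlapped between the genotypes in all 3, and the 3 intervals overlap one another. Mrps30, likewise a large subunit protein despite its symbol (mL65), was at 25.5 and 23.5 against 24.5 and 19.7 CPM (-0.15). Counting Mrps18a and Mrps30 with the large subunit and leaving out Mrps36 gave medians of -0.23 and -0.21.

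Of the remaining members at the ends of the range of levels, Mrpl52 was at 38.7 and 38.0 CPM against 33.6 and 28.5 CPM (log2 fold change -0.30), Mrpl42 at 61.6 and 50.2 against 51.9 and 45.5 CPM (-0.20) and Mrpl30 at 56.4 and 48.0 against 45.1 and 33.6 CPM (-0.41). Mrpl19 was at 11.5 and 13.0 against 7.75 and 10.3 CPM (-0.44), Mrpl17 at 38.9 and 44.2 against 36.2 and 35.9 CPM (-0.21) and Mrpl35 at 34.4 and 29.5 against 29.6 and 24.3 CPM (-0.24). None of these 6 passed the test (edgeR adjusted p from 0.4 to 0.678). Of the small subunit, Mrps12 was at 32.1 and 32.4 against 29.3 and 31.7 CPM (-0.08), Mrps7, which binds early in assembly, at 61.5 and 54.6 against 49.1 and 45.7 CPM (-0.29) and Mrps25 at 23.8 and 23.999 against 28.4 and 18.4 CPM (-0.03). The mutant livers of Mrps25 lay on either side of the wild type.

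Most of these genes have short transcripts, and short transcripts as a class had estimates below 0. The longest listed transcript was up to 1 kb for 33 members and between 1 and 2 kb for another 33. Among the 855 other tested genes of up to 1 kb the median log2 fold change was -0.23, and 72.0% were under 0. The 33 members of that length had a median of -0.30. Between 1 and 2 kb the medians were -0.05 for 2885 other genes and -0.18 for 33 members. For 2 to 3 kb and over 3 kb the other genes had medians of 0.00 and 0.07, and the members, only 6 in each class, -0.10 and -0.18. The transcript length thus moved with the fold change over the whole table, and its part in the members' values was not tested.

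The members' values were also set side by side by motif. The 26 members with an ETS motif had a median log2 fold change of -0.23 and the 43 without one -0.19, and for the YY1 motif the medians were -0.20 in 21 and -0.22 in 48 members. For NRF1 they were -0.07 in 13 and -0.23 in 56 members, the widest gap of the 6 motifs. For NF-Y they were -0.17 in 27 and -0.24 in 42 members, for the E-box -0.23 in 5 and -0.20 in 64, and for the TATA box -0.24 in 5 and -0.20 in 64. The members without a window are in none of these counts, and the differences were not tested.

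Some of these genes share a start region with a neighbour. Of the 69 members with a promoter window, 24 had a protein-coding gene starting within 1000 bases upstream on the other strand. The share of all genes tested with such a neighbour is not given here. Tested neighbours that are not members numbered 21, and edgeR called 0 of them, against 2.86% of all genes tested called in either direction. Estimates below 0 were found in 13, against 48.9% of all genes tested. The median of these neighbours was -0.07, beside -0.19 for the members they adjoin. Some of them belong to the same pathway. Mrps12 starts 147 bases from Sars2, the mitochondrial seryl-tRNA synthetase (log2 fold change 0.01 beside -0.08), and Mrpl43 starts 116 bases from Twnk, the mitochondrial DNA helicase (0.37 beside -0.18). In 17 members the listed span overlaps another tested gene, so that their reads could be shared.

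For 10 members more than 1 transcript was listed, and RSEM divided their reads between them. The shorter Mrps2 transcript (2022 bases) held 52.2% and 44.6% of the gene's reads in WT livers and 47.9% and 11.03% in K307R livers, and the log2 fold change of the whole gene was -0.12. Mutant replicate 2 stood apart from the other 3 livers. In Mrpl1 the shorter transcript held 35.7% and 25.9% against 19.9% and 26.8%.

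The 5 mitoribosomal proteins that carry other symbols had a median log2 fold change of -0.30. All 5 had estimates below 0, against 48.9% of all genes tested. Aurkaip1 was at 78.4 and 65.6 CPM in WT livers and at 56.7 and 45.7 CPM in K307R livers (-0.49, edgeR adjusted p = 0.278), and Ptcd3, an RNA-binding protein of the small subunit, at 40.3 and 35.9 against 28.6 and 30.8 CPM (-0.36, 0.395). By edgeR 0 of the 5 were called, with 1 lower at an unadjusted p under 0.05, and DESeq2 called 0.

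The other genes that build and run the mitochondrial translation apparatus contained no call either. Among 29 factors of ribosome assembly and ribosomal RNA modification the median was -0.09. Of these factors 18 had estimates below 0, against 48.9% of all genes tested. The smallest p belonged to Mtg1, a GTPase of large subunit assembly, at 14.2 and 11.8 against 9.07 and 9.16 CPM (-0.51, edgeR adjusted p = 0.281), and to Afg3l2, the protease that matures Mrpl32, at 73.5 and 76.3 against 57.9 and 61.1 CPM (-0.33, 0.406). Among 15 tested translation factors the median was 0.01. Tsfm, the exchange factor of the elongation factor Tufm, was at 9.84 and 10.5 against 6.68 and 7.16 CPM (-0.56, edgeR adjusted p = 0.259), and the initiation factor gene Mtif2 at 28.8 and 25.8 against 21.4 and 19.4 CPM (-0.42, 0.323).

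Among 22 genes listed as aminoacyl-tRNA synthetases that serve mitochondria the median was -0.06. The list includes Qrsl1, Gatb and Gatc, which are not synthetases. Gars, which charges glycine in both cytosol and mitochondria, was at 58.0 and 60.9 against 45.4 and 36.7 CPM (-0.53, edgeR adjusted p = 0.216), and Yars2 at 13.3 and 12.9 against 10.3 and 10.1 CPM (-0.36, 0.43). The 26 genes of mitochondrial transcription, DNA upkeep and messenger handling had a median of -0.13. Lrpprc, which stabilises mitochondrial messengers, was at 111 and 105 against 66.4 and 75.8 CPM (-0.60, edgeR adjusted p = 0.152), and Fastkd1 at 22.9 and 18.7 against 13.3 and 13.0 CPM (-0.65, 0.151). At an unadjusted p under 0.05, 1 gene was lower in each of the first 3 of these 4 lists, and 5 were lower and 1 higher in the last. The background at that threshold was 8.31% of all genes tested lower and 8.5% higher. DESeq2 called 0 genes in each of the 4. The medians of the assembly, translation factor and synthetase lists changed sign with the setting, ranging from -0.12 to 0.01, from -0.16 to 0.08 and from -0.10 to 0.04.

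Of 12 nuclear regulators of mitochondrial genes 1 was called by edgeR, against 2.86% of all genes tested called in either direction. The median of the 12 was 0.04, and 5 had estimates below 0, against 48.9% of all genes tested. Myc, the growth factor-induced transcription factor known to drive ribosome production, was at 8.51 and 8.99 CPM in WT livers and at 3.29 and 3.79 CPM in K307R livers. Both mutant livers lay below both wild-type livers. The log2 fold change of Myc was -1.31 (SE 0.26, 95% interval -1.90 to -0.71, edgeR adjusted p = 0.0428). The call was lost without mutant replicate 1 (0.154) or 2 (0.115), with total-count scaling (0.0907) and in limma on log2(FPKM + 1) (0.098). Esrra, a nuclear receptor that drives respiratory chain genes, was at 34.4 and 32.8 against 21.7 and 17.0 CPM (-0.80, edgeR adjusted p = 0.0919). Ppargc1a, its coactivator, was at 7.75 and 15.2 against 7.53 and 7.31 CPM (-0.64, 0.386), with wild-type replicate 2 apart from the other livers, and it was called without wild-type replicate 1 (edgeR adjusted p = 0.0452). Nrf1, Gabpa and Yy1, genes for factors of the NRF1, ETS and YY1 motifs, did not pass the test. No gene was picked for the E-box, NF-Y and TATA box motifs. Nrf1 was at 6.89 and 7.86 against 10.3 and 8.90 CPM, with both mutant livers above both wild-type livers (0.38, 95% interval -0.15 to 0.92, edgeR adjusted p = 0.465). The estimates were 0.02 for Gabpa (edgeR adjusted p = 0.97) and 0.05 for Yy1 (0.927).

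The nuclear-encoded subunits of oxidative phosphorylation and the cytosolic ribosomal proteins, the gene groups nearest in function and in structure, are given beside the members for scale. Over all genes tested 48.9% had estimates below 0, and 8.31% were lower at an unadjusted edgeR p under 0.05. Of 78 oxidative phosphorylation subunits tested, 77 had estimates below 0 with a median of -0.38, and 0 were called by edgeR (15 lower and 0 higher at an unadjusted p under 0.05; DESeq2 called 1 lower). Ndufa8, a subunit of complex I, was at 99.1 and 108 against 62.1 and 50.3 CPM (-0.88, edgeR adjusted p = 0.0625), and Cox7a1, at 1.504 and 2.18 against 0.690 and 0.409 CPM, had an estimate of -1.74 (0.12). Of 80 cytosolic ribosomal proteins 73 had estimates below 0 with a median of -0.21, 3 were lower at an unadjusted p under 0.05, and edgeR and DESeq2 called 0. Rpl12 was at 297 and 299 against 218 and 144 CPM (-0.72, edgeR adjusted p = 0.211) and Rpl36al at 150 and 130 against 112 and 79.2 CPM (-0.55, 0.281). Without mutant replicate 2 the median of the cytosolic proteins was 0.06, and without mutant replicate 1 it was -0.54. The medians of the members were -0.24 (large) and -0.19 (small), on either side of that of the cytosolic ribosomal proteins, and the difference between the groups was not tested.

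**Figure D4:**
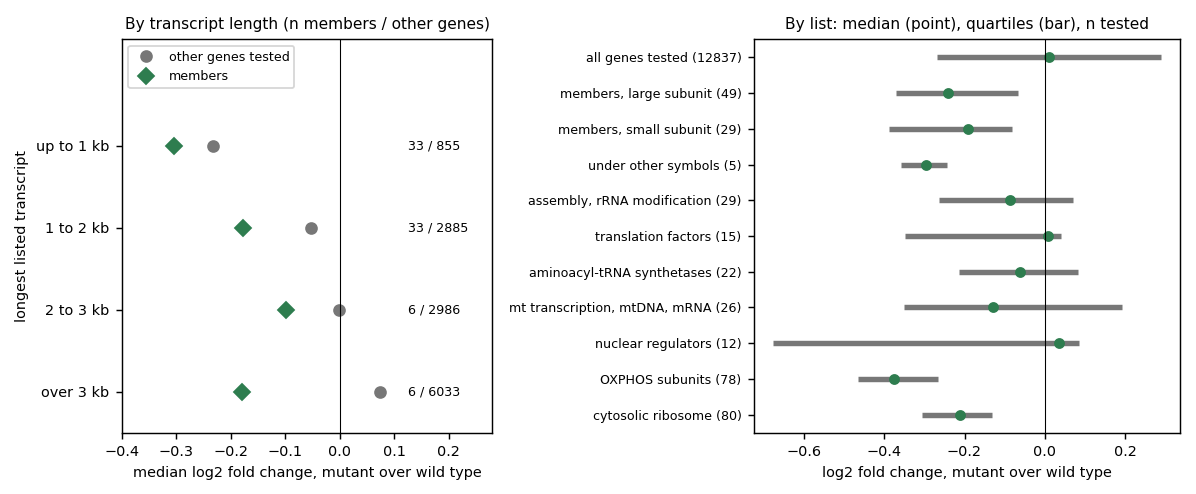
Left, median log2 fold change of mutant over wild type by longest listed transcript for members and for the other genes tested, with the numbers of each; right, median (point) and quartiles (bar) for all genes tested, for the members of each subunit and for the other gene lists, with the number tested. Genes of up to 1 kb stand at -0.23 and members of that length at -0.30, and the oxidative phosphorylation subunits have the lowest median, -0.38.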

How the data were processed

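Total RNA of 4 livers was sequenced. Per the submitters' processing notes, RSEM, Bowtie2 and HISAT were used with the build mm10; no label or header says which strand or read length. The deposited expected counts are estimated reads per RefSeq transcript, not normalized, per the file headers. The deposited FPKM, also per the file headers, are the authors' values relative to length and depth.

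Expected counts were summed per Entrez gene and rounded, transcripts missing from a table were set to 0, and symbols came from RefSeq's GRCm38.p6 gene table (99.8% of genes). edgeR 4.0.16 in R 4.3.3 fitted genotype alone on all 4 livers with TMM scaling and filterByExpr (quasi-likelihood F test, Benjamini-Hochberg over 12837 genes, threshold 0.05). CPM use the TMM library sizes. The fit was tested on simulated data. Other settings were RLE and total-count scaling, DESeq2 1.42.0, limma 3.58.1 with a pseudocount of 1 or 0.1 before log2 of FPKM (genes averaging at least 1 FPKM in a genotype), no filter beyond 1 read, a mean of at least 1 CPM, a replicate block and leaving out each liver.

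The members and lists were chosen with earlier results of these data known. Named members are those called, the 5 of each subunit with the smallest p in each direction, the 4 highest and lowest in FPKM, the Mrps18 genes, Mrps30 and Mrps36. From each other list the called genes or else the 2 with the smallest p are named. Mrpl46, Mrpl58, Mrpl1, Mrps2, Esrra, Ppargc1a and the neighbouring and overlapping genes were named after their values were seen, and Nrf1, Gabpa and Yy1 were added for the motifs. The locus of Mrps28 has no window in the promoter table. Intervals from the fit cover the spread between these 4 livers only.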

Additional observations from a re-analysis of the deposited data

How the results depend on the processing

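The count of members called lower in the mutants, 1, became 0 with total-count scaling, in limma on log2(FPKM + 1) and log2(FPKM + 0.1), and ranged from 0 to 2 when single livers were left out (0 without either mutant liver, 2 without wild-type replicate 2, when Mrpl20 joined Mrps28). The count called higher was 0 in each of the 12 alternative fits. The log2 fold change of Mrps28 was -0.995 with total-count scaling (edgeR adjusted p = 0.0771), -0.94 in limma on log2(FPKM + 1) (0.0864) and -0.98 on log2(FPKM + 0.1) (0.088), and without single livers it ran from -1.16 to -0.97. With the replicate block it was -1.06 (edgeR adjusted p = 0.049), and the block gave 1 member lower and 0 higher. Over all genes tested, same-numbered livers did not deviate together (correlation -0.0027). The median member, in contrast, was lower in replicate 2 than in replicate 1 in both genotypes (-0.12 log2 units in WT and -0.18 in K307R livers). The labels do not say that the numbers pair the samples, so the block was kept as an alternative. The cause of these losses was not tested. The median of the large subunit lay between -0.30 and -0.15 over all fits and that of the small subunit between -0.35 and -0.10, with -0.35 to -0.14 when single livers were left out. Median FPKM in place of the sum gave a large-to-small ratio of 1.04 in WT livers and 1.16 in K307R livers, and the subunits of the assembled ribosome gave 2.23 and 2.32. Total-count scaling raised the members with both mutant livers above from 4 to 9 and lowered those with both below from 41 to 31. The shares over all genes under that scaling are not given here. Total-count scaling also moved the median over all genes tested, from 0.01 to 0.09. Among the other lists 1 gene was called lower. The count was 2 in DESeq2, 3 with no filter, and 0 with total-count scaling, in both FPKM fits and with the replicate block, where Myc had an edgeR adjusted p of 0.0591. It ran from 0 to 2 when single livers were left out. Over all genes the counts called lower and higher, 189 and 178, were 370 and 368 in DESeq2, 419 and 410 with no filter, 69 and 94 in limma on log2(FPKM + 1), 70 and 91 on log2(FPKM + 0.1), and 124 lower with total-count scaling. Without single livers they ran from 94 to 393 lower and from 117 to 327 higher. Each member had 89 or more reads in each liver. The parts of counting error and of the spread between livers in these values were not separated.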
